A study of Mus musculus with 20 samples.

Results

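The interleukin-6 family was described here through 10 genes, chosen by name out of the 35579 genes to which the sequencing data were summed. They are the ligand genes Il6, Il11, Lif and Osm, the receptor genes Osmr, Lifr, Il6ra and Il6st, the transcription factor gene Stat3 and the feedback inhibitor gene Socs3. The rule names genes and uses no measured value, but the set was proposed with earlier results of these data known. The RNA came from left hindlimb skin and skeletal muscle of wild-type C57BL/6J mice, taken 70 days after the limb received 35 Gy of electrons from an ElectronFlash linear accelerator or a sham treatment. The accelerator was run either at ultra-high dose rate (FLASH) or in its conventional mode (CONV), and the design asked how the late state of the tissues differed between the modalities. Sham was represented by 3 libraries per tissue, FLASH by 4 and CONV by 3, which makes 20 in all, and the labels name no transgene or deletion in any group. The labels put all skin in batch 1 and muscle in batch 2, so tissue and batch cannot be told apart. Samples of a group are numbered without a statement that each number is a separate animal, and no age is given. A p-value here thus measures only the spread between samples, and that spread may be technical.

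Cytokines of this family signal through receptor complexes that share the subunit gp130, the product of Il6st, which is made by most cells. Interleukin-6 reaches gp130 with the receptor encoded by Il6ra, leukemia inhibitory factor (Lif) with that of Lifr, and oncostatin M (Osm) with that of Osmr or Lifr. Janus kinases bound to the complex then phosphorylate STAT3, which enters the nucleus and switches on genes that include Socs3, whose product binds gp130 and its kinases and ends the signal. In skin the family is known from wound repair, inflammation of the epidermis and acute-phase responses, and in muscle from exercise and regeneration.

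The promoters of Il6 and Socs3 are shown because these genes stand at the start and at the end of the pathway. Both had their highest skin level in CONV replicate 3, while in CONV replicate 2 Socs3 was high and Il6 was below FLASH replicate 4. Each is the 250 bases before the RefSeq start of the gene in the mouse assembly GRCm38.p6, written 5′ to 3′ on the strand of the gene. That of Il6 is chr5:30012864-30013113 on the plus strand and that of Socs3 is chr11:117969367-117969616 on the minus strand. Capitals mark an AP-1 motif (TGANTCA), a C/EBP motif (TTNNGNAA) and NF-kappaB motifs (GGG and CC with any 5 bases between them) in Il6 and a STAT motif (TTCNNNGAA) in Socs3, each searched on both strands.
Il6: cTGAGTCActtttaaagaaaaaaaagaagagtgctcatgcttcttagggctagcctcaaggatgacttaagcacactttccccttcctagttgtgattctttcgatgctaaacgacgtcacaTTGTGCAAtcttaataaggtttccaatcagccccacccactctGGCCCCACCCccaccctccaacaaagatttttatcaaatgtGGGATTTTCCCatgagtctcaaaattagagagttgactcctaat
Socs3: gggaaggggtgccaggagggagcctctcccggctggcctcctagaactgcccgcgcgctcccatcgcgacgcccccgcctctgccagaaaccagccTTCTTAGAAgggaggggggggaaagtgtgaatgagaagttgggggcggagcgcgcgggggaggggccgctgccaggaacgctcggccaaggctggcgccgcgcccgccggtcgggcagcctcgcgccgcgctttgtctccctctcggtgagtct
In Il6 the AP-1 match TGAGTCA lies 249 to 243 bases before the start, the C/EBP match TTGTGCAA 128 to 121 bases before it, and the NF-kappaB match GGGATTTTCC 44 to 35 bases before it. The last of these overlaps a further match, GGATTTTCCC, on the other strand, and GGCCCCACCC lies 85 to 76 bases before the start. In Socs3 the STAT match TTCTTAGAA lies 154 to 146 bases before the start, and an NF-kappaB match at 97 to 88 bases was left in lower case. The window of Socs3 also covers part of an exon of a noncoding Socs3 transcript in GENCODE M21. RefSeq promoters were at hand for 9 of the 10 members, in 11 windows, and of these only the window of Socs3 held the STAT motif. Among 32851 promoter windows of the same length, 7.02% held the STAT motif, 6.75% the AP-1 motif, 36.8% the C/EBP motif and 45.8% the NF-kappaB motif, so the last pair occurs by its letters alone in a large share. The AP-1 motif was also found in a window of Il11 and in that of Lif. A match describes the letters and does not show that a factor binds there.

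Skin libraries held 24396463 to 33250762 estimated counts and muscle libraries 10198699 to 12336479, of which the 10 most abundant genes took 60.01% to 65.1% in muscle. Basal keratinocyte markers summed to 5558 to 27342 CPM (counts scaled to the library size) in skin and to 10.1 to 22.3 CPM in muscle, where skeletal muscle fibre markers summed to 48881 to 82723 CPM. The same fibre markers reached 20047 CPM in skin sham replicate 1 and 20428 CPM in skin FLASH replicate 2, against 57.2 to 2849 CPM in the other 8 skin libraries. In 7 records (2 of skin and 5 of muscle) the file bore the library name of a different record, always among sham and FLASH. Groups follow the records, and the comparison of the 3 CONV libraries with the other 7 of a tissue, which does not depend on that choice, comes first.

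In unirradiated and FLASH skin the shared receptor subunit was the most abundant member and the ligands Il6 and Osm the least. Levels between genes are compared here as the TPM of the protein-coding transcripts, a unit scaled by transcript length and library size, because retained-intron and other noncoding transcripts held much of the summed TPM of some members. Coding transcripts held a median of 25.8% of the TPM of Osmr and 30.2% of that of Stat3 over the 10 skin libraries, but 96.6% of that of Il6st. Of the estimated counts, which are not scaled by length, they held a median of 52.1% for Osmr, 76.7% for Stat3 and 98.0% for Il6st. Over the 7 libraries without CONV the median coding level was 162 TPM for Il6st, 76.1 TPM for Il6ra, 62.0 TPM for Lifr and 57.9 TPM for Stat3. It was 25.3 TPM for Socs3, 21.6 TPM for Osmr, 5.28 TPM for Lif, 2.49 TPM for Il11, 0.287 TPM for Il6 and 0.0816 TPM for Osm. Il6st stood clear of the next gene in that order, since its lowest library (134 TPM) lay above the highest of Il6ra (124 TPM). Il6ra, Lifr and Stat3 overlapped in their ranges, as did Stat3 with Socs3, Socs3 with Osmr, Il11 with Il6, and Il6 with Osm. Osmr stood clear of Lif, and Lif of Il11. In the 3 CONV libraries the order was Il6st at 151 TPM, Stat3 at 83.4, Socs3 at 81.3, Lifr at 38.6, Il6ra at 36.3, Osmr at 30.9, Il6 at 17.2, Osm at 11.01, Lif at 6.60 and Il11 at 3.67 (medians).

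By edgeR, Osm and Socs3 were called higher in CONV skin than in sham and FLASH skin together. Each of these calls was lost in 8 of 10 fits that left out 1 library. All 4 ligand genes were highest in CONV replicate 3, as were Osmr, Il6st, Stat3 and Socs3. The share of all genes highest in that library was not computed, so this count is no result about the ligands. Of the 10 members, 2 passed an adjusted p of 0.05 by edgeR's quasi-likelihood test, both higher, against 1.65% of all 20026 genes tested (1.58% higher and 0.0699% lower). An unadjusted p under 0.05 was reached by 7 members, against 23.4% of all genes. The median log2 change was 1.06 over the members and 0.0047 over all genes. The members are given below by role, each as CPM by library in order of replicate.

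Osm, the gene of oncostatin M, a cytokine made mainly by neutrophils, macrophages and T cells, lies on chromosome 11 at 4236420 to 4241026 (plus strand, GRCm38, as all gene positions here). It was at 0, 0.0830 and 0.223 CPM in sham skin, at 0.0659, 0.0750, 0.316 and 1.94 CPM in FLASH skin and at 3.44, 15.5 and 21.03 CPM in CONV skin. All 3 CONV libraries lay above the other 7, and among those FLASH replicate 4 was the highest. Osm was the only member whose CONV libraries did not overlap the rest in CPM, against 3.85% of all genes that were higher and 2.62% that were lower in this way. Outside CONV it had 0 to 64 estimated counts per skin library, and it passed the count filter only through its CONV libraries. Its lack of overlap and its change are thus not independent of that filter. The mean rose from 0.387 ± 0.695 CPM (SD, n = 7) to 13.3 ± 9.001 CPM (n = 3), a log2 change of 5.07 ± 1.05 (SE; edgeR adjusted p = 0.0474). With any single library of sham 1 to 3, FLASH 1 to 3 or CONV 2 and 3 left out, the adjusted p of Osm was 0.0797 to 0.243, while without FLASH replicate 4 it was 0.00259 and without CONV replicate 1 it was 0.0236. The log2 change of Osm stayed between 4.54 and 6.64 in these fits.

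Il6 (chromosome 5, 30013114 to 30019981, plus strand) encodes the cytokine for which the family is named. It was at 0.0751, 0.249 and 0.160 CPM in sham, at 0.0330, 0.113, 0.949 and 5.53 CPM in FLASH and at 11.3, 1.75 and 89.6 CPM in CONV. CONV replicate 3 stood far above the others and CONV replicate 2 below FLASH replicate 4, so the groups overlapped. The log2 change of Il6 was 5.06 ± 1.42 (edgeR adjusted p = 0.0907), nearly the size of that of Osm but with a wider error. Il6 likewise passed the count filter only through its CONV libraries, with 1 to 182 estimated counts per library elsewhere in skin. Without CONV replicate 3 the log2 change of Il6 was 2.66 (adjusted p = 0.378), and without FLASH replicate 4 it was 6.98 and passed (0.0132).

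Il11, whose product drives fibroblast and matrix responses, was at 1.73, 1.41 and 2.08 CPM in sham, 2.21, 1.13, 1.80 and 2.58 CPM in FLASH and 3.24, 1.37 and 22.8 CPM in CONV. Lif, a cytokine with a part in stem cell maintenance and in inflammation, was at 11.9, 10.0 and 8.87 CPM in sham, 12.6, 9.82, 7.66 and 11.4 CPM in FLASH and 14.1, 11.04 and 51.9 CPM in CONV. Both were high in CONV replicate 3 and close to the other groups in CONV replicate 2. Il11 had a log2 change of 2.31 ± 0.63 (edgeR adjusted p = 0.0823) and Lif of 1.32 ± 0.39 (0.101). Both rested on CONV replicate 3: without it the log2 change was 0.32 for Il11 (edgeR adjusted p = 0.681) and 0.28 for Lif (0.492). Without CONV replicate 1 both passed, with adjusted p of 0.04 for Il11 and 0.0487 for Lif, and without CONV replicate 2 Il11 passed (0.0491).

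**Figure D1:**
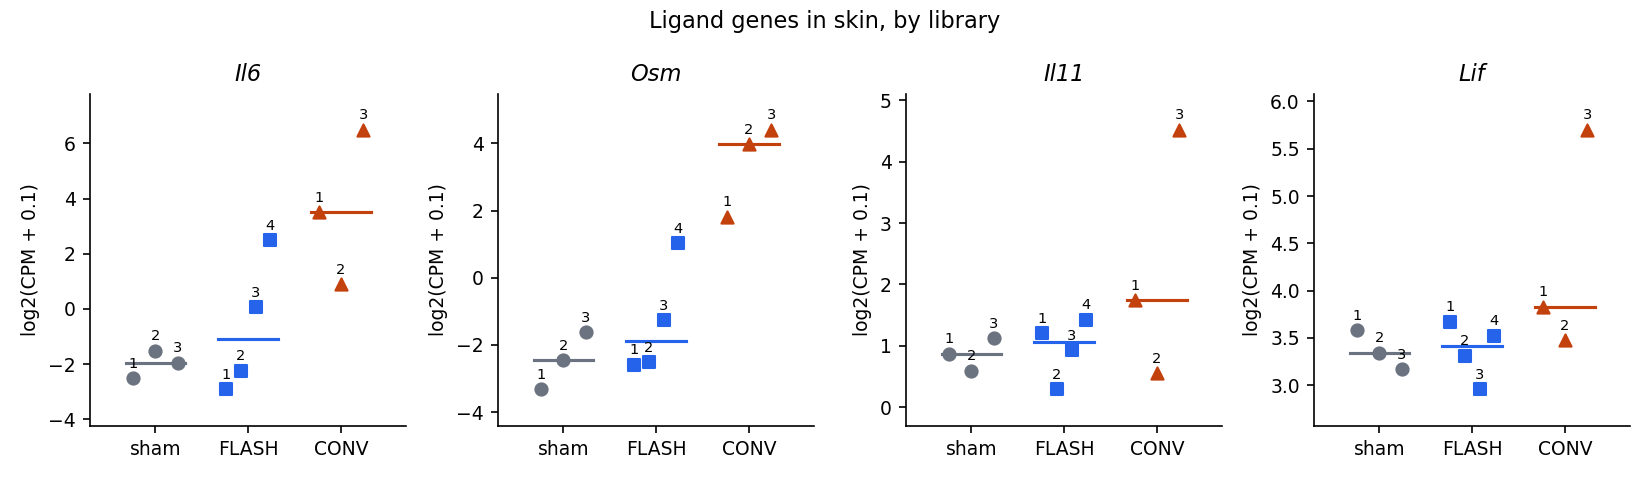
Level of each ligand gene in skin as log2(CPM + 0.1), with 1 point per library numbered by replicate, circles for sham, squares for FLASH and triangles for CONV, and a line at the group median. Osm is higher in each CONV library than in any other, whereas Il6, Il11 and Lif are highest in CONV replicate 3 and overlap between groups.

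None of the 4 receptor genes was called, and none had CONV libraries apart from the rest. Il6st (chromosome 13, 112464070 to 112510086, plus strand) was at 671, 411 and 375 CPM in sham, 502, 458, 316 and 415 CPM in FLASH and 419, 366 and 691 CPM in CONV, so its groups overlapped throughout. Its log2 change was 0.13 ± 0.25 (edgeR adjusted p = 0.776), and without CONV replicate 3 it was -0.20. Osmr was at 129, 121 and 101 CPM in sham, 130, 131, 86.7 and 175 CPM in FLASH and 150, 75.6 and 339 CPM in CONV. Its highest library was CONV replicate 3, as for Il6st and the ligands, its second highest was FLASH replicate 4 and its lowest CONV replicate 2. The log2 change of Osmr was 0.59 ± 0.36 (edgeR adjusted p = 0.343), and it was -0.15 without CONV replicate 3 and 0.97 without CONV replicate 2.

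Il6ra (chromosome 3, 89864059 to 89913196, minus strand), the gene of the receptor that binds interleukin-6 itself, was at 206, 183 and 292 CPM in sham, 246, 231, 97.2 and 114 CPM in FLASH and 105, 149 and 77.9 CPM in CONV. FLASH replicates 3 and 4 lay among the CONV libraries, and the other 5 libraries lay above them. The log2 change of Il6ra was -0.82 ± 0.35 (edgeR adjusted p = 0.194). Lifr was at 324, 230 and 224 CPM in sham, 236, 357, 127 and 183 CPM in FLASH and 148, 199 and 178 CPM in CONV, with a log2 change of -0.45 ± 0.28 (0.347), or -0.24 without the 2 libraries rich in muscle fibre markers. These were the 2 members with lower means in CONV.

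Stat3 (chromosome 11, 100885098 to 100939540, minus strand) was at 181, 146 and 167 CPM in sham, 183, 179, 145 and 270 CPM in FLASH and 212, 319 and 414 CPM in CONV. FLASH replicate 4 lay above CONV replicate 1, and the other 6 libraries lay below all CONV libraries. The log2 change was 0.80 ± 0.23 (edgeR adjusted p = 0.0907), and Stat3 passed without FLASH replicate 4 (0.0226) and without CONV replicate 1 (0.0296). Without CONV replicate 3 the change of Stat3 was 0.53 (edgeR adjusted p = 0.310).

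Socs3 (chromosome 11, 117966079 to 117970047, minus strand) was at 37.8, 34.4 and 29.7 CPM in sham, 19.4, 22.9, 29.6 and 71.2 CPM in FLASH and 69.5, 132 and 292 CPM in CONV. FLASH replicate 4 lay just above CONV replicate 1, and the remaining libraries of sham and FLASH were at 37.8 CPM or lower. Socs3 rose from 35.0 ± 17.2 CPM (SD, n = 7) to 165 ± 115 CPM (n = 3), a log2 change of 2.23 ± 0.44 (SE; edgeR adjusted p = 0.0410). With any single library of sham 1 to 3, FLASH 1 to 3 or CONV 2 and 3 left out, its adjusted p was 0.0669 to 0.254. Without FLASH replicate 4 it was 0.00796 and without CONV replicate 1 it was 0.0109. The log2 change of Socs3 stayed between 1.503 and 2.6 in these fits.

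**Figure D2:**
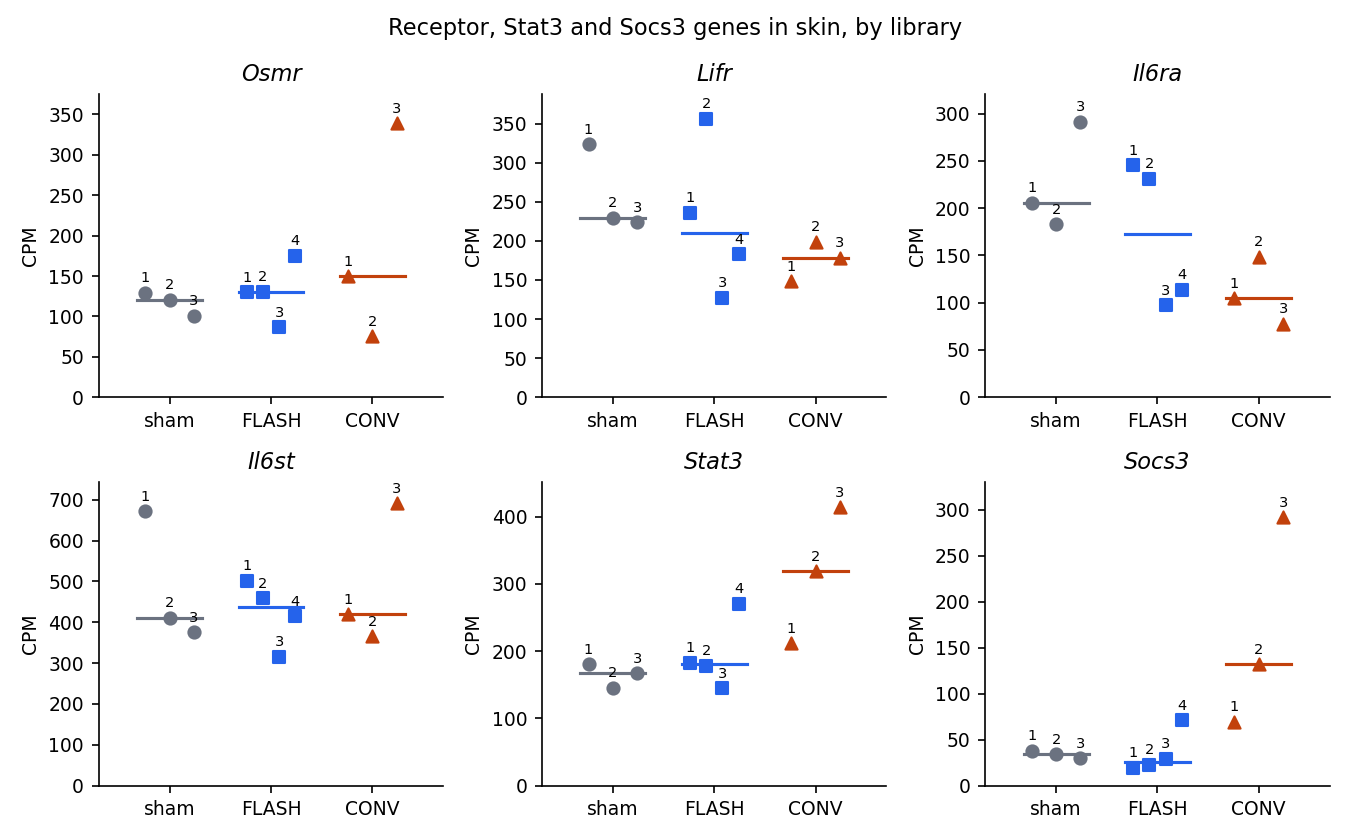
CPM of the receptor genes, Stat3 and Socs3 in skin, with 1 point per library numbered by replicate, circles for sham, squares for FLASH and triangles for CONV, and a line at the group median. Socs3 reaches 292 CPM in CONV replicate 3 against 19.4 to 71.2 CPM in sham and FLASH, while Il6st overlaps between all groups.

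The count of members called depended on the tool. DESeq2 called 6 of the 10 (Il6, Il11, Lif, Osm, Stat3 and Socs3), against 10.3% of all genes, limma voom called Osm, and scaling by library totals called none. None was called without the 2 skin libraries rich in muscle fibre markers, where the adjusted p was 0.190 for Osm and 0.195 for Socs3. The share of all genes called is not given for limma voom, library totals or that fit. These losses are thus not shown to be particular to the members.

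Summed markers of several cell types had a higher median in CONV than in other skin. Those of T cells, adipocytes, Schwann cells and satellite cells had a lower one. They did not follow the members in every library. In bulk tissue, fewer cells of a type and less RNA per cell cannot be told apart. Of all genes tested in this comparison, edgeR called 1.65%, and 23.4% had an unadjusted p under 0.05. The 8 neutrophil markers (S100a8, S100a9, Csf3r, Cxcr2, Retnlg, Ngp, Mmp8 and Ly6g) summed to 20.4 to 25.8 CPM in sham and in FLASH replicates 1 to 3. They summed to 97.0 CPM in FLASH replicate 4 and to 159, 594 and 596 CPM in CONV, and 3 of the 7 tested were called higher in CONV. Ly6g, a defining surface marker of mouse neutrophils, was at 0 in 2 of 3 sham and 2 of 4 FLASH libraries and in no CONV library. Macrophage and monocyte markers summed to 218 to 593 CPM outside CONV and to 509, 890 and 1326 CPM in CONV (3 of 9 called higher). Fibroblast markers summed to 5837 to 8435 CPM outside CONV and to 10173, 19359 and 30038 CPM in CONV (4 of 7 called higher). Markers of injured keratinocytes summed to 185 to 1469 CPM in sham and FLASH replicates 1 to 3, to 7743 CPM in FLASH replicate 4 and to 8450, 22366 and 6062 CPM in CONV (0 of 6 called by edgeR, 3 with an unadjusted p under 0.05). Endothelial markers summed to 89.2 to 284 CPM outside CONV and to 266, 260 and 722 CPM in CONV (1 of 6 called higher, Tie1, and 4 with an unadjusted p under 0.05). Mast cell markers summed to 27.4 to 121 CPM outside CONV and to 90.1, 56.02 and 156 CPM in CONV (0 of 6 called, 1 with an unadjusted p under 0.05, all 6 with a positive log2 change). T cell markers summed to 33.5 to 57.5 CPM outside CONV and 34.5 to 38.8 CPM in CONV (0 of 6 called, 3 with an unadjusted p under 0.05). Adipocyte markers summed to 90.2 to 1011 CPM outside CONV and 115 to 348 CPM in CONV (0 of 6 called, 1 with an unadjusted p under 0.05, all 6 with a negative log2 change). The part of these cells in the levels of Osm, Il6 and Socs3 was not tested.

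**Figure D3:**
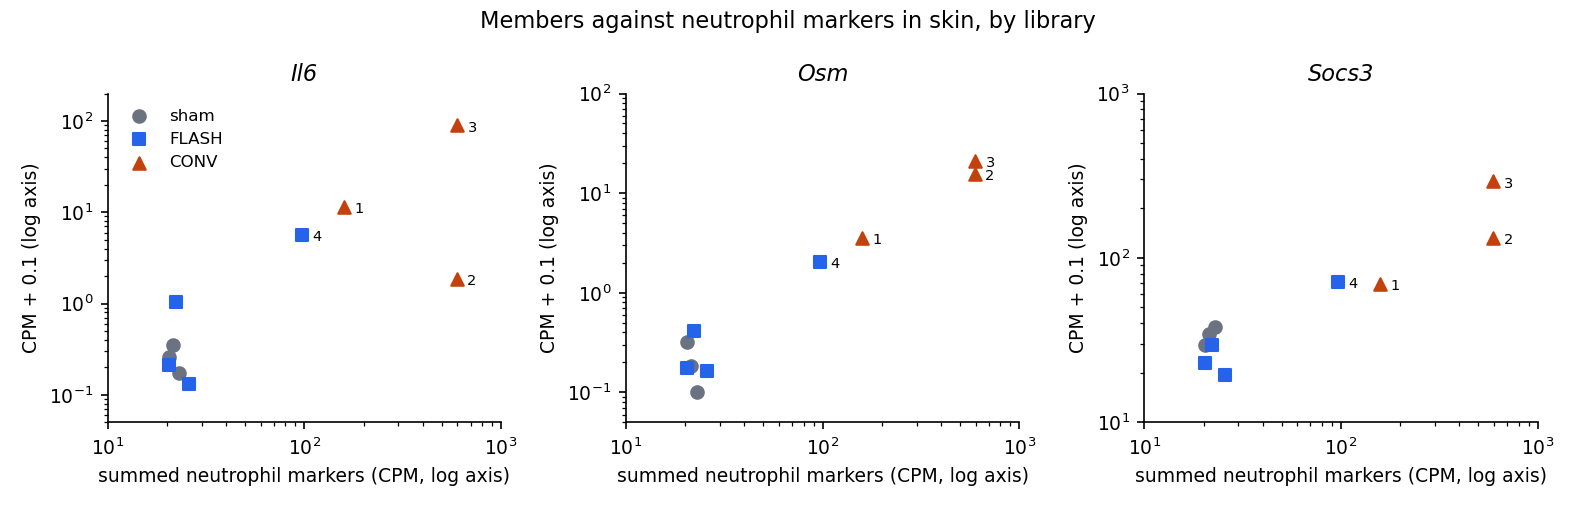
CPM + 0.1 of Il6, Osm and Socs3 against the summed CPM of 8 neutrophil markers in the 10 skin libraries, both on log axes, with circles for sham, squares for FLASH and triangles for CONV; CONV libraries and FLASH replicate 4 are numbered. The 6 unnumbered libraries lie together at 20.4 to 25.8 CPM of markers, and CONV replicate 2 is low in Il6 for its marker level.

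Against sham alone, no member passed in CONV skin, and each member's change had the same sign as in the wider comparison. edgeR called 0% of all genes, whereas an unadjusted p under 0.05 was reached by 20.1% of them and by 7 members. Il6, Osm, Stat3 and Socs3 were higher in every CONV library than in any sham library, against 13.6% of all genes, and Lifr and Il6ra were lower in every one, against 14.3%. The log2 change was 7.66 ± 2.13 for Il6 (edgeR adjusted p = 0.138), where the 3 sham libraries held 16 estimated counts in all, and 6.94 ± 1.52 for Osm (0.127), where they held 10. It was 2.28 ± 0.60 for Socs3 (0.129), 0.94 ± 0.28 for Stat3 (0.146), 2.40 ± 0.87 for Il11 (0.187) and 1.32 ± 0.52 for Lif (0.210). For Il6ra it was -1.04 ± 0.40 (0.203) and for Lifr -0.56 ± 0.34 (0.361). Without CONV replicate 3 the changes were 5.27 for Il6, 0.41 for Il11 and 0.29 for Lif, and without sham replicate 1 that of Lifr was -0.37. DESeq2 called 5 members here, against 8.14% of all genes. Without FLASH replicate 4, which enters only through the shared estimate of spread, Osm passed by edgeR (0.0456).

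Between the modalities at equal dose, the ligands Il6, Il11, Lif and Osm and the genes Stat3 and Socs3 were lower in FLASH than in CONV skin at an unadjusted p under 0.05, and none passed after adjustment. edgeR called 0% of all genes here, with 12.7% at an unadjusted p under 0.05 against these 6 of 10 members. Osm was lower in every FLASH library than in any CONV library, against 4.73% of all genes, with a log2 change of -4.44 ± 1.15 (edgeR adjusted p = 0.263). Socs3 changed by -2.20 ± 0.54 (0.255), Il6 by -4.36 ± 1.57 (0.331), Il11 by -2.24 ± 0.78 (0.319), Lif by -1.31 ± 0.48 (0.334) and Stat3 by -0.70 ± 0.26 (0.336). Without CONV replicate 3 the changes were -1.96 for Il6, -0.25 for Il11, -0.27 for Lif, -0.43 for Stat3 and -1.47 for Socs3. Without FLASH replicate 4 that of Il6 was -6.51. DESeq2 called Osm and Socs3, against 2.28% of all genes. This comparison and that with sham share the CONV libraries.

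Between FLASH and sham skin edgeR called 0% of all genes, and no member reached an unadjusted p under 0.05, against 0.659% of all genes. DESeq2 called no member and 0.025% of all genes. Il6 had a log2 change of 3.30 ± 1.83 and Osm of 2.49 ± 1.37 (edgeR adjusted p = 1.00 for each). Both rested on FLASH replicate 4: without it the log2 change was 1.14 for Il6 and 0.55 for Osm, and without the libraries of disagreeing name it was 3.97 for Osm. Socs3 was at 35.8 ± 24.01 CPM in FLASH and 33.96 ± 4.10 CPM in sham (SD, n = 4 and 3), and its FLASH values ran from below the lowest sham library to above the highest.

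**Figure D4:**
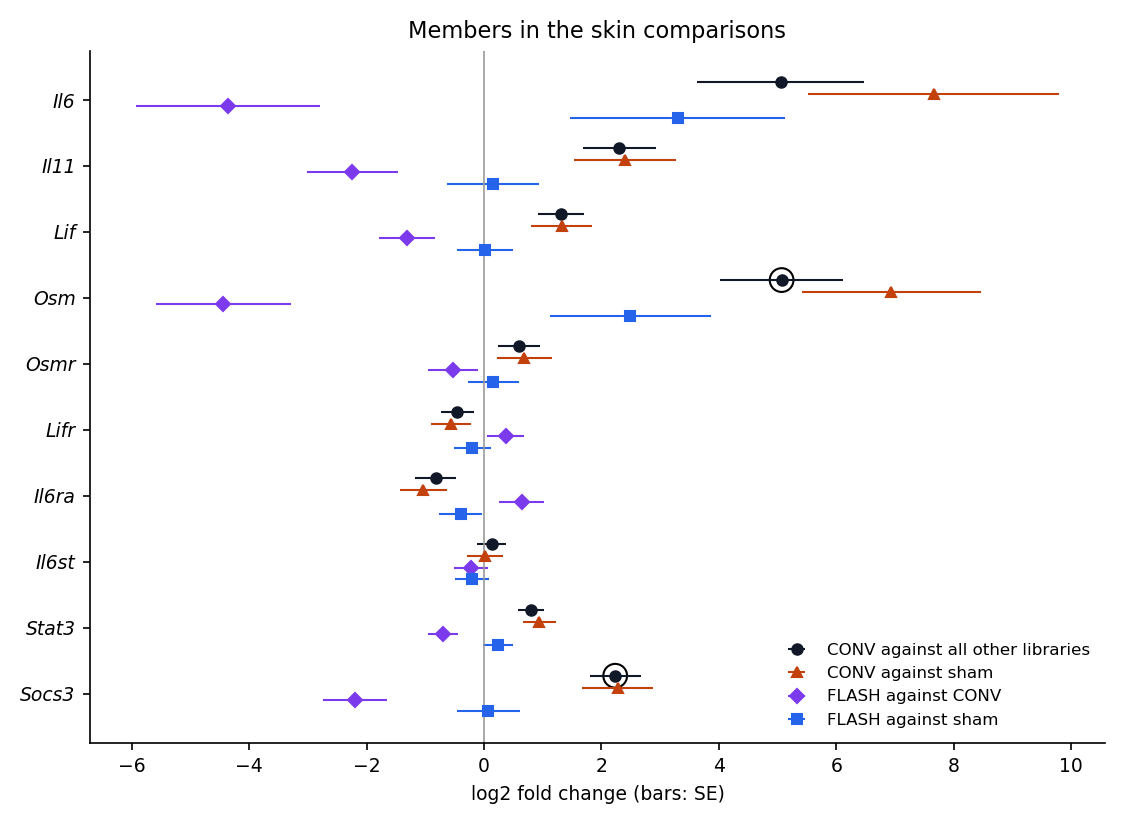
Log2 fold change of each member in skin in the 4 comparisons, with bars for the SE and a ring around the changes with an edgeR adjusted p under 0.05. The rings are on Osm and Socs3 in CONV against all other libraries, and in the 3 comparisons with CONV the receptor genes lie nearer 0 than the ligands.

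Among other genes of the pathway, 4 that STAT3 or the acute phase switches on were called higher in CONV skin. None of the kinase, adaptor and inhibitor genes listed was called. At a share of 1.65% of all genes called, the absence of a call in such short lists is no result about them. Of 26 STAT3-responsive and acute-phase genes tested against the other 7 libraries, 4 passed, against 1.58% of all genes called higher. All 26 had a positive log2 change, against 50.4% of all genes, with a median log2 change of 1.28 (0.0047 over all genes). Cebpd, a transcription factor of the acute phase, changed by 1.85 ± 0.32 (edgeR adjusted p = 0.0352), from 10.3 ± 1.90 to 37.3 ± 26.6 CPM (SD). Saa3, an acute-phase apolipoprotein, changed by 5.40 ± 0.95 (0.0375), Il4ra, the interleukin-4 receptor gene, by 2.27 ± 0.46 (0.0449), and Junb, a subunit of AP-1, by 1.53 ± 0.32 (0.0474). Of the 26 genes, 6 did not overlap between groups, these 4 among them, against 3.85% of all genes that were higher in this way. Acute-phase and wound genes of this list are also made by the neutrophils and injured keratinocytes whose markers are given above, and their part in this count was not tested.

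Of 9 listed genes that induce Il6, 8 were tested and 4 were called higher in CONV skin, against the same 1.58% of all genes. All 8 had a positive log2 change, with a median log2 change of 1.08. Ptgs2, the inducible cyclooxygenase gene, was at 4.40 to 33.9 CPM outside CONV and at 85.5 to 337 CPM in CONV (4.02 ± 0.65, edgeR adjusted p = 0.0352). Il1b, the gene of interleukin-1 beta, was at 1.05 to 21.1 CPM and at 59.5 to 284 CPM (5.08 ± 0.94, 0.0388). Tnf changed by 2.39 ± 0.44 (0.0387) and Tgfb1, the gene of transforming growth factor beta 1, by 1.18 ± 0.25 (0.0487).

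Of the 8 further ligand genes of the family, 7 were tested and none was called by edgeR, against 1.65% of all genes. An unadjusted p under 0.05 was reached by 3, against 23.4% of all genes, and Il31 was not tested. Clcf1, a ligand that acts through gp130 and the Lifr product, was at 6.31 to 34.04 CPM outside CONV and 39.8 to 81.6 CPM in CONV, without overlap (2.25 ± 0.49, edgeR adjusted p = 0.0521). Of all genes, 3.85% were higher in CONV without overlap. Ebi3, a subunit of interleukin-27, was at 0.300 to 0.820 and at 0.801 to 2.44 CPM (1.54 ± 0.36, 0.0576), and Il27, the other subunit, changed by 0.79 ± 0.30 (0.157). Of 4 further receptor genes 1, Il27ra, was called higher, against 1.58% of all genes. Its product pairs with gp130, and it was at 1.09 to 1.94 CPM outside CONV and 2.37 to 5.43 CPM in CONV (1.39 ± 0.27, edgeR adjusted p = 0.0410). Il31ra, which pairs with the Osmr product, was at 41.7 ± 22.1 CPM (SD) outside CONV and 11.03 ± 2.87 CPM in CONV and was not called (-1.92 ± 0.58, 0.104). Cntfr was at 0.53 ± 0.44 on the log2 scale (0.485) and had a value of -0.030 without CONV replicate 3. The 9 genes called in these lists (Cebpd, Saa3, Il4ra, Junb, Ptgs2, Tnf, Il1b, Tgfb1 and Il27ra) were also called without FLASH replicate 4 and without CONV replicate 1, and Cebpd, Saa3 and Ptgs2 without CONV replicate 2. Without any single one of sham replicates 1 to 3, FLASH replicates 1 to 3 or CONV replicate 3 none of the 9 was called, with edgeR adjusted p from 0.0748 (Cebpd) to 0.27 (Tgfb1).

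Of 10 Janus kinase and adaptor genes none was called by edgeR, against 1.65% of all genes. Only the adaptor gene Shc1 (0.56 ± 0.16, edgeR adjusted p = 0.0890) had an unadjusted p under 0.05, as did 23.4% of all genes. Grb2, another adaptor gene, was at 0.25 ± 0.14 (0.306). Of 11 genes of feedback and receptor shedding none was called and 5 had an unadjusted p under 0.05, against the same shares of all genes. Ptpn1, a phosphatase gene, was at 0.65 ± 0.19 (0.0913), Socs1 at 1.40 ± 0.43 (0.107) and Socs7 at -0.89 ± 0.28 (0.115), the last at 27.1 to 43.7 CPM in CONV and 45.5 to 99.3 CPM outside it, without overlap. Of all genes, 2.62% were lower in CONV without overlap. Within the SOCS genes of this list and the members, Socs3 was the only gene called.

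The protein-coding genes whose level followed a member most closely over the 10 skin libraries were named by Pearson's r of log2 CPM with a prior count of 2, as a description of libraries that share the same high CONV samples. For Il6 they were Gpr176 (r = 0.99), Col12a1 (0.99), Tnc (0.99), Cemip (0.98) and Cdh11 (0.98). For Osm they were Slc20a1 (0.99), Ppard (0.99), Rpn1 (0.99), Adam8 (0.99) and Ripk3 (0.99). For Socs3 they were Btd (0.99), Prok2 (0.98), Col4a1 (0.98), Crip1 (0.98) and B4galt1 (0.98). Without CONV replicate 3, r was 0.97 to 0.99 for the genes named with Il6, 0.98 to 0.99 for those of Osm and 0.96 to 0.97 for those of Socs3. The genes named with Il6 include the matrix genes Col12a1 and Tnc and the fibroblast cadherin gene Cdh11, and no gene was named with more than 1 member.

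At the level of transcripts, Il6st was split between Il6st-201 and Il6st-203, both protein-coding. Il6st-203 held 26.8% to 39.8% of the TPM of the gene in the 7 libraries outside CONV, and 30.2%, 30.5% and 50.4% in the CONV libraries sorted by value. The highest share belonged to CONV replicate 2, while CONV replicate 3, the library with the highest Il6, Il11, Lif and Osm, held 30.2%. For Osmr, the coding transcript Osmr-201 held 23.6% to 33.0% of the TPM outside CONV and 29.3% to 33.1% in CONV, and retained-intron transcripts the rest for the most part. No test was made of these shares, and kallisto divides reads between transcripts by estimate.

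In muscle the ligands were at the limit of detection and the receptor genes were lower than in skin. Il6 was listed with 0 to 2 estimated counts per library, Il11 with 0 to 3.1, Lif with 1 to 12 and Osm with 0 to 2, too few for edgeR. Their CONV libraries were compared with the other 7 by an exact two-sided permutation test, with p = 0.933 for Il6, 0.600 for Il11, 0.933 for Lif and 0.600 for Osm (0.933 for each after adjustment over the 4). A small difference in these 4 genes was not detectable at this depth. In CONV muscle they reached at most 0.0805 CPM (Il6), 0.0899 CPM (Il11), 0.981 CPM (Lif) and 0.161 CPM (Osm), each below every CONV skin library. In coding TPM, 8 of the 10 members were higher in every skin library than in any muscle library, the exceptions being Il6 and Osm. The share of all genes that lay apart in this way was not computed, so this count is no result about the family. Il6st was at 25.5 to 40.4 TPM in muscle and 95.8 to 252 TPM in skin, Lifr at 10.9 to 18.01 and 35.0 to 73.0 TPM, and Il6ra at 0.470 to 2.11 and 26.0 to 124 TPM. Stat3 was at 5.32 to 13.6 TPM in muscle and 52.3 to 147 TPM in skin, and Osmr at 0.843 to 2.26 and 11.3 to 71.4 TPM. The tissues also differed in batch and in the share of counts taken by the 10 most abundant genes, and the part of these in the gaps was not tested.

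Osmr was the member whose CONV libraries lay apart from the rest of muscle in CPM. It was at 6.59, 7.29 and 7.62 CPM in sham, 7.89, 6.97, 7.47 and 8.98 CPM in FLASH and 10.97, 10.95 and 10.47 CPM in CONV. The CONV libraries lay close together and above the other 7, against 1.98% of all 13080 genes that were higher and 2.47% that were lower in this way. The same held in coding TPM (1.80 to 2.26 in CONV, 0.843 to 1.35 elsewhere), but not in TPM summed over all transcripts, where FLASH replicate 4 (4.31) lay above CONV replicates 2 and 3 (both at 4.26). The mean was 10.8 ± 0.283 CPM (SD, n = 3) against 7.55 ± 0.763 CPM (n = 7), a log2 change of 0.51 ± 0.11 that did not pass (edgeR adjusted p = 0.0968). edgeR called none of the 6 members tested, against 0.0612% of all genes, and 1 had an unadjusted p under 0.05, against 11.9%. DESeq2 called Osmr (adjusted p = 0.0298) and 1.15% of all genes. Against sham alone Osmr was again higher in every CONV library (7.66% of all genes were, and 7.76% lower), with a log2 change of 0.59 ± 0.13 (edgeR adjusted p = 0.223). edgeR called no member there and 0.00765% of all genes, an unadjusted p under 0.05 was reached by 1 member and 10% of all genes, and DESeq2 called no member and 0.375% of all genes. Osmr passed with files assigned by library name (0.0339), where 1.25% of all genes were called. Every FLASH library lay below every CONV library in Osmr (4.21% of all genes did, and 4.48% lay above), with a log2 change of -0.46 ± 0.12 (edgeR adjusted p = 0.352), or -0.26 without the libraries of disagreeing name. In that comparison edgeR called no member and 0.00765% of all genes, 2 members (Osmr and Il6ra) and 8.3% of all genes reached an unadjusted p under 0.05, and DESeq2 called no member and 0.313% of all genes. Between FLASH and sham muscle no member reached an unadjusted p under 0.05, against 2.5% of all genes, edgeR called 0% of all genes and DESeq2 called no member and 0.00765% of all genes.

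The other 5 members tested in muscle overlapped between groups. Il6ra was at 4.68, 4.49 and 7.26 CPM in sham, 6.33, 3.66, 2.76 and 4.72 CPM in FLASH and 5.48, 8.45 and 6.71 CPM in CONV (log2 change against the other 7 of 0.50 ± 0.23, edgeR adjusted p = 0.421), and the change was 0.32 without CONV replicate 2. Socs3 was at 1.43, 1.44 and 4.40 CPM in sham, 0.937, 1.48, 1.94 and 2.63 CPM in FLASH and 4.85, 4.75 and 1.55 CPM in CONV (0.87 ± 0.44, 0.470). Lifr, Il6st and Stat3 had log2 changes of -0.0034 ± 0.12 (0.993), 0.09 ± 0.08 (0.702) and 0.19 ± 0.16 (0.677). Of the STAT3-responsive and acute-phase genes 21 were tested in muscle, and 17 were higher in CONV than in the other 7 libraries, against 51.3% of all genes. None was called by edgeR, against 0.0612% of all genes, and 8 had an unadjusted p under 0.05, against 11.9%. The median log2 change was 0.36 over this list and 0.0076 over all genes. Neutrophil markers summed to 1.72 to 3.36 CPM outside CONV and 3.60 to 9.66 CPM in CONV muscle, and macrophage and monocyte markers to 19.95 to 71.2 CPM and 55.2 to 73.3 CPM. Their part in the level of Osmr was not tested.

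**Figure D5:**
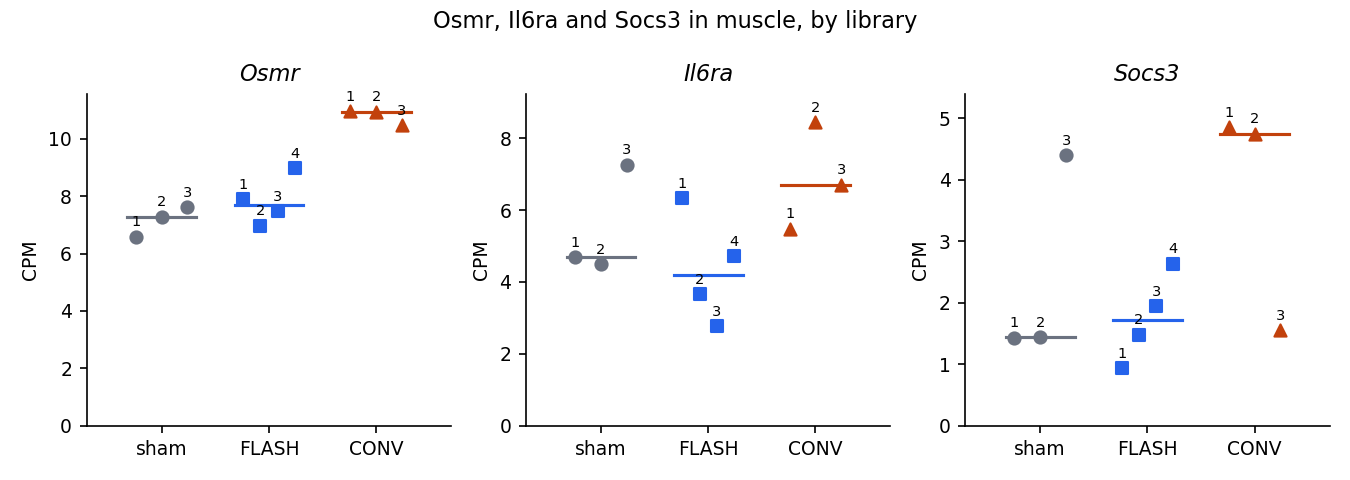
CPM of Osmr, Il6ra and Socs3 in muscle, with 1 point per library numbered by replicate, circles for sham, squares for FLASH and triangles for CONV, and a line at the group median. Osmr lies at 10.47 to 10.97 CPM in CONV against 6.59 to 8.98 CPM in the other libraries, while the groups overlap for Il6ra and Socs3.

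The difference between the tissues in the change under CONV was tested as an interaction over all 20 libraries. edgeR called none of the 10 members, against 0.109% of 19199 genes, and DESeq2 called none, while 3 members (Il11, Il6ra and Stat3) reached an unadjusted p under 0.05, against 16.4% of all genes. Il6ra had the smallest p (0.00785, adjusted 0.161 by edgeR): its log2 change was lower in skin than in muscle by -1.29 ± 0.44. The skin change exceeded that in muscle by 2.76 ± 1.30 for Il11 (edgeR adjusted p = 0.299) and by 0.63 ± 0.29 for Stat3 (0.291). Il6, Il11, Lif and Osm were below the count filter in muscle and entered this fit through their skin levels. Il11 had at most 3.1 estimated counts per muscle library, so its value does not measure a contrast between the tissues. For Socs3 the skin change exceeded that in muscle by 1.37 ± 0.70 (0.337), and for Osmr by 0.10 ± 0.40 (0.945). For Il6 (5.49 ± 4.49, 0.575) and Osm (3.06 ± 4.09, 0.759) the error was wide, with at most 2 estimated counts per muscle library, so the call of Osm in skin is not shown to be particular to that tissue.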

How the data were processed

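The authors quantified 116116 transcripts per library with kallisto (0.5.0, genome mm10, per the submitters' processing notes) and deposited an estimated count, not normalized, and a TPM for each. The annotation release and the strand setting were not given in the sources used here, so reads of overlapping antisense genes cannot be told apart. RNA was depleted of ribosomal RNA and made into stranded libraries, per the labels' protocols.

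Transcripts were assigned to 35579 genes by identifier without version in GENCODE M21 (98.5% matched), and estimated counts were summed per gene and rounded for the tests. TPM values were summed likewise, over all or only coding transcripts. The main test was edgeR 4.0.16 (R 4.3.3), quasi-likelihood with robust dispersion, TMM scaling and filterByExpr, with Benjamini-Hochberg adjustment over all genes tested (threshold 0.05). A fit per tissue held all 3 groups, and a fit of 2 groups set CONV against the other 7 libraries. The scripts were tested on simulated data. CPM is TMM-scaled, and SE is the log2 change divided by the square root of F. Unfiltered genes of very low count were compared on log2(CPM + 0.5). DESeq2 1.42.0 and limma 3.58.1 (voom) were alternatives, beside other scalings, no filter, files by library name, a replicate block and each library left out. Leaving out the 2 muscle-rich libraries was added after seeing the data.

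The members, gene lists and markers were chosen with earlier results of these data known, and lists were written from general knowledge. Named genes are the members, in each list the called genes and up to 3 of smallest p in CONV against other skin, and the 5 genes closest to Il6, Osm and Socs3 by Pearson's r. In muscle, the depth and the share taken by abundant genes limit low genes.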

Additional observations from a re-analysis of the deposited data

Results flagged for a closer look

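In groups of 4 libraries, 2 of 16 member levels tested (each member in FLASH skin and each of those above the count filter in FLASH muscle) had a library farther from the rest than Dixon's 95% critical value allows, and chance alone sets apart about 1 in 20 groups. Il6 was at 5.53 CPM in skin FLASH replicate 4 and at 0.0330 to 0.949 CPM in the other 3 FLASH libraries, a gap of 0.833 of the range. Osm was at 1.94 CPM in the same library and at 0.0659 to 0.316 CPM in the others, a gap of 0.867 of the range. The same library held 97.0 CPM of neutrophil markers and 7743 CPM of injured keratinocyte markers, against at most 25.8 and 1469 CPM in the other FLASH skin libraries, and the part of these cells in its Il6 and Osm levels was not tested.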

How the results depend on the processing

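In CONV against other skin, the count of members called (2) became 6 with DESeq2, 1 with upper-quartile scaling, no filter or limma voom, and 0 with library totals, without the libraries of disagreeing name or without the 2 muscle-rich libraries. Leaving out 1 library gave 0 to 5: 0 without sham replicate 1, 2 or 3, FLASH replicate 1, 2 or 3 or CONV replicate 3, 1 without CONV replicate 2, 4 without FLASH replicate 4 and 5 without CONV replicate 1. In the single-library fits that gave 0, none of the pathway-list genes called in the main fit passed either. The share of all genes called is not given for these fits, so a loss is not shown to be particular to the members. In CONV against sham (0 called) DESeq2 called 5 and leave-one-out fits 0 to 1. In FLASH against CONV (0) DESeq2 called 2. In muscle, CONV against all others (0) gave 1 with DESeq2 and CONV against sham (0) gave 1 with files by library name. The count of members whose CONV skin libraries lay apart was 1 in CPM and 2 (Osm and Lif) in TPM. Over all genes, the 331 calls in CONV against other skin became 2071 with DESeq2.

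The replicate block called 3 members in CONV against other skin (Il6, Osm and Socs3, with 1292 genes in all) and 1, Osm, in CONV against sham. The numbers were not taken as pairing the samples: in skin the correlation of deviations ran from -0.71 to 0.52 over 9 pairs of equal number, 3 of them above 0.1, and in muscle from -0.23 to 0.21, 1 of them above 0.1.

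Without CONV replicate 3 the log2 change turned negative for Osmr (-0.15, with 0.97 at the other end of the leave-one-out range), Il6st (-0.20, with 0.30) and Cntfr (-0.030, with 0.84), none of them called, and no other of the 52 single-gene results changed sign under any alternative. Of 1019 such values, 842 kept their sign and side of the threshold, 129 lost a call and 45 gained one. Unless a setting leaves out samples, the cause was not tested.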
